A study of Rattus norvegicus with 6 samples.

Results

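The genes described here are 40 genes for chaperones, folding enzymes, protein translocation, quality control and stress sensing of the endoplasmic reticulum, the compartment in which secreted and membrane proteins are folded. Their probe sets were taken by gene symbol. The list of genes was chosen with earlier results of these data known. Ern1, the sensor kinase and endonuclease IRE1α, had no probe set in the platform annotation used here and gives no value. The other 39 genes had 60 probe sets, and each gene was represented by its brightest probe set, judged by the mean of the 6 arrays, as were all 14217 named genes of the table.

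The values came from Affymetrix expression arrays of heart muscle cells isolated from Wistar rats 1 to 2 days old and freed of fibroblasts on a density gradient, per the labels. There were 3 groups of 2 arrays: untreated cells as control, cells under 50 µmol/l phenylephrine, and cells that were stretched in both axes to 112% for 24 h. As an agonist of α1-adrenergic receptors, phenylephrine, like stretch, belongs to the standard hypertrophic stimuli for cultured myocytes. The stretched cells had spent 36 h on silicone membranes coated with collagen type I and 24 h without serum before the stretch. For control and phenylephrine cells the sources used here give neither the growth surface nor the time without serum, and they do not give the length of the drug treatment. The treatment text of the phenylephrine arrays also lists endothelin-1 and angiotensin II as agents, while their titles name phenylephrine alone. RNA of several preparations was pooled, and the labels do not state whether a group's arrays stand for separate cultures; p-values therefore measure only how far these 6 samples scatter, and that scatter may be technical. Both comparisons with control use the same 2 control arrays.

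Proteins enter the endoplasmic reticulum through the SEC61 channel, with the help of the translocon-associated protein (TRAP) complex, and are folded by an HSP70/HSP90 chaperone cycle built on BiP and GRP94, by the lectin chaperones calnexin and calreticulin, and by enzymes that form disulfide bonds and isomerise prolines. Proteins that fail to fold are drawn back to the cytosol and destroyed. When misfolded protein accumulates, the sensors IRE1α, PERK and ATF6 start the unfolded protein response (UPR): the transcription factors ATF6 and XBP1 raise chaperone and degradation genes, and PERK slows translation and raises ATF4 and its targets.

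Promoter sequences were searched for exact matches to the response elements of that pathway. Elements that differ by a base or lie farther from the start would not be found. The RefSeq promoter table of the rat assembly GRCr8, from 250 bases before to 50 after each transcription start, held 32 of the 40 genes; Ern1, Os9, Derl1, Sec61a1, Manf, Pdia3, Pdia6 and Atf6 had no entry. The endoplasmic reticulum stress response element (ERSE) was searched on both strands as CCAAT, then 9 bases of any kind, then CCACG; NF-Y binds the part on the left and ATF6 the part on the right. ERSE matches were found in 7 of the 32 genes (21.9%) and in 22 of all 33469 promoter windows of the same length (0.0657%). The stretches that follow hold the matches of 6 of these genes, printed 5′ to 3′ in the direction of the gene, with the fixed letters of the element in capitals (as their reverse complement where the element lies on the opposite strand).

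Hspa5, chr3:38452963-38453001 (GRCr8, + strand): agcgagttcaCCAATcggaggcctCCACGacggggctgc
Xbp1, chr14:84604548-84604586 (GRCr8, + strand): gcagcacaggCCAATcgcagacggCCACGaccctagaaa
Dnajc3, chr15:102432524-102432562 (GRCr8, + strand): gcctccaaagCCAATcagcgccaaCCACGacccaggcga
Hsp90b1, chr7:23012441-23012479 (GRCr8, - strand): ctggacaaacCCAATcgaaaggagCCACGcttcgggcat
Hsp90b1, chr7:23012337-23012375 (GRCr8, - strand): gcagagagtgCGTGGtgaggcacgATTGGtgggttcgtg
Creld2, chr7:121789229-121789267 (GRCr8, + strand): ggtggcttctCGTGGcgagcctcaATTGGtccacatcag
Calr, chr19:40213125-40213163 (GRCr8, + strand): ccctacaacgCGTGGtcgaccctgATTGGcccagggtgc

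The related element ERSE-II, searched as ATTGG, 1 base of any kind and CCACG on both strands, was found in Herpud1, Hyou1 and Dnajb11, which is 3 of 32 genes (9.38%), and in 17 of all windows (0.0508%). Hyou1 held 2 such matches, 188 and 88 bases before its start. The ERSE-II stretches of Herpud1 and Hyou1 are shown because these genes had the largest negative differences with phenylephrine.

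Herpud1, chr19:10614811-10614841 (GRCr8, - strand): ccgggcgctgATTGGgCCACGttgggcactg
Hyou1, chr8:53602684-53602714 (GRCr8, + strand): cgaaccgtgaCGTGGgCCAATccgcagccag
Hyou1, chr8:53602784-53602814 (GRCr8, + strand): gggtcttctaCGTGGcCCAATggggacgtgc

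Shorter motifs were also searched on both strands. CCACG alone, which is part of both elements, was present in 26 of the 32 genes (81.2%) and in 31.6% of all windows, and CCAAT alone in 25 genes (78.1%) and 37.5% of windows. The core TGACGTG of the unfolded protein response element, the site of XBP1, was found in Hspa5, Dnajc10, Hyou1, Erp29 and Ssr4 (15.6%, against 1.81% of windows); in Hyou1 it overlaps the ERSE-II match farther from the start. TGATG, 1 base of any kind and AA, the core of the amino acid response element that ATF4 reads, was found in Herpud1 alone (3.12%, against 3.98% of windows). Ssr4, the gene with the largest change among the 39, held neither ERSE nor ERSE-II, and its TGACGTG lay after the start on the opposite strand. The 100 bases before its start are shown for comparison, in lower case because they hold none of these motifs.

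Ssr4, chrX:156675558-156675657 (GRCr8, + strand): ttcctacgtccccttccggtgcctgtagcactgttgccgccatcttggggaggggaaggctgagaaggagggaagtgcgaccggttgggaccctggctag

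**Figure D1:**
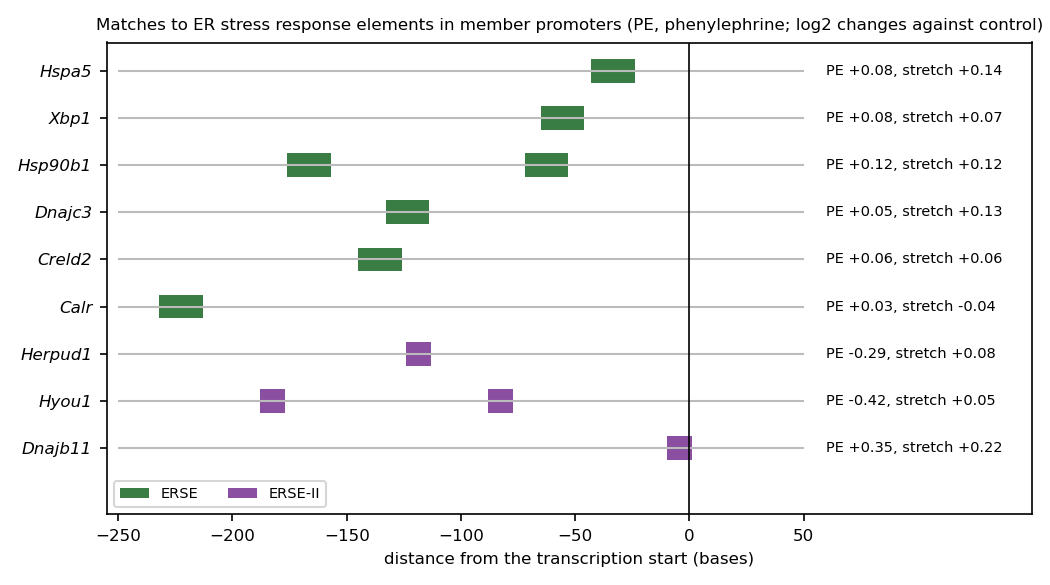
Positions of the ERSE (green) and ERSE-II (violet) matches from 250 bases before to 50 bases after the transcription start of 9 genes, with each gene's log2 change against control for phenylephrine (PE) and stretch printed at the right. The 6 genes drawn with ERSE have phenylephrine changes between 0.03 and 0.12, and the 3 with ERSE-II run from -0.42 to 0.35.

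Across the arrays, median log2 signals were 8.30 to 8.33, and interquartile ranges ran from 1.70 in phenylephrine replicate 2 to 1.92 in stretch replicate 1. The 12 heart muscle markers (among them Tnnt2, Myh6, Actn2 and Ryr2) read at least 13.07 on every array. In limma Nppa was their only call with phenylephrine (1.05, adjusted p = 0.005). With stretch 0 of the 12 passed, and Nppa gave 0.74 (adjusted p = 0.072). Mybpc3 was the lowest with phenylephrine, at -0.34 (adjusted p = 0.17). Phenylephrine values were positive for 9 markers and negative for 3, their median being 0.13. Stretch values were positive for 7 and negative for 5, their median being 0.02. The 12 fibroblast markers, which mark the other main cell type of such preparations, had a summed linear signal of 45306 and 44332 in control arrays, 32966 and 31582 with phenylephrine and 36724 and 38156 with stretch. With phenylephrine 11 of the 12 had a change below 0 and 4 fell past the test (Dpt, Col3a1, Postn and Pdgfra). Of these calls, 1 was left without control replicate 1, control replicate 2 or phenylephrine replicate 2, 2 without either stretch array, and 3 without phenylephrine replicate 1. With stretch 12 of 12 had a change below 0 and 0 passed in limma, 4 having an unadjusted p under 0.05; 1 passed without either phenylephrine array (Dpt). Of 9 smooth muscle and pericyte markers 3 rose with phenylephrine (Cnn1, Cspg4 and Acta2), 5 had changes below 0, down to -0.48 for Smtn, and the median was -0.03; with stretch Cnn1 alone passed (1.45). This list had summed signals of 18433 and 18074 in control, 25121 and 25451 with phenylephrine and 21310 and 22978 with stretch. Des gave the largest part of each sum, with log2 signals of 13.40 to 13.91, while no other marker of the list read above 11.74 (Acta2). The changes of Des, 0.42 with phenylephrine and 0.28 with stretch, did not pass. Which cells gave the Des signal was not tested, so the sums do not measure smooth muscle cells or pericytes alone. Of 9 endothelial markers 2 fell with phenylephrine, and of 11 macrophage and leukocyte markers 1 fell. In these bulk samples fewer cells of a type and less RNA per cell cannot be told apart, and the part of these other cell types in the results on folding genes was not tested.

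With phenylephrine the 39 genes passed the test about as seldom as all features did. limma was fitted to all 31042 probe sets, with Benjamini-Hochberg adjustment over all of them and a threshold of 0.05. Of the 39 genes 1 rose and 0 fell, where 3.6% of all probe sets passed (1.73% higher and 1.87% lower). With 1 probe set per gene, 343 of all 14217 genes rose and 335 fell. An unadjusted p under 0.05 was reached by 9 of the 39 genes, 7 higher and 2 lower, where 19.4% of all genes did so; both counts lie near the background. The changes ran from -0.42 for Hyou1 to 0.62 for Ssr4 on the log2 scale, with a median of 0.06 against 0.002 over all genes. Above 0 lay 30 of the 39, against 50.7% of all genes. Both phenylephrine arrays stood above both control arrays for 15 of the 39 genes and below them for 4, where all genes gave 22% above and 24.9% below. The median was 0.17 without phenylephrine replicate 2, -0.03 without phenylephrine replicate 1, 0.14 without control replicate 1 and 0.04 without control replicate 2. After quantile normalization of the arrays 5 of the 39 genes passed: Ssr4, Ssr1, Derl2 and Dnajb11 higher and Hyou1 lower. In that setting 2790 of all 31042 probe sets passed, against 1117 in the main fit.

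Stretch gave smaller differences. In limma 0 of the 39 genes passed, where 0.345% of all probe sets did (0.306% higher and 0.0387% lower). With 1 probe set per gene, 65 of all 14217 genes rose and 9 fell. Of the 39 genes 1, Atf6, had an unadjusted p under 0.05, where 7.24% of all genes did. The changes ran from -0.17 for Eif2ak3 to 0.40 for Atf6, with a median of 0.07 against 0.0043 over all genes. Above 0 lay 29 of the 39, against 51.8% of all genes. Arrays of stretched cells stood above both control arrays for 11 of the 39 genes and below them for 2, against 21.6% and 19.4% of all genes. The median was 0.12 without control replicate 1, 0.03 without control replicate 2 and 0.02 without stretch replicate 1.

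**Figure D2:**
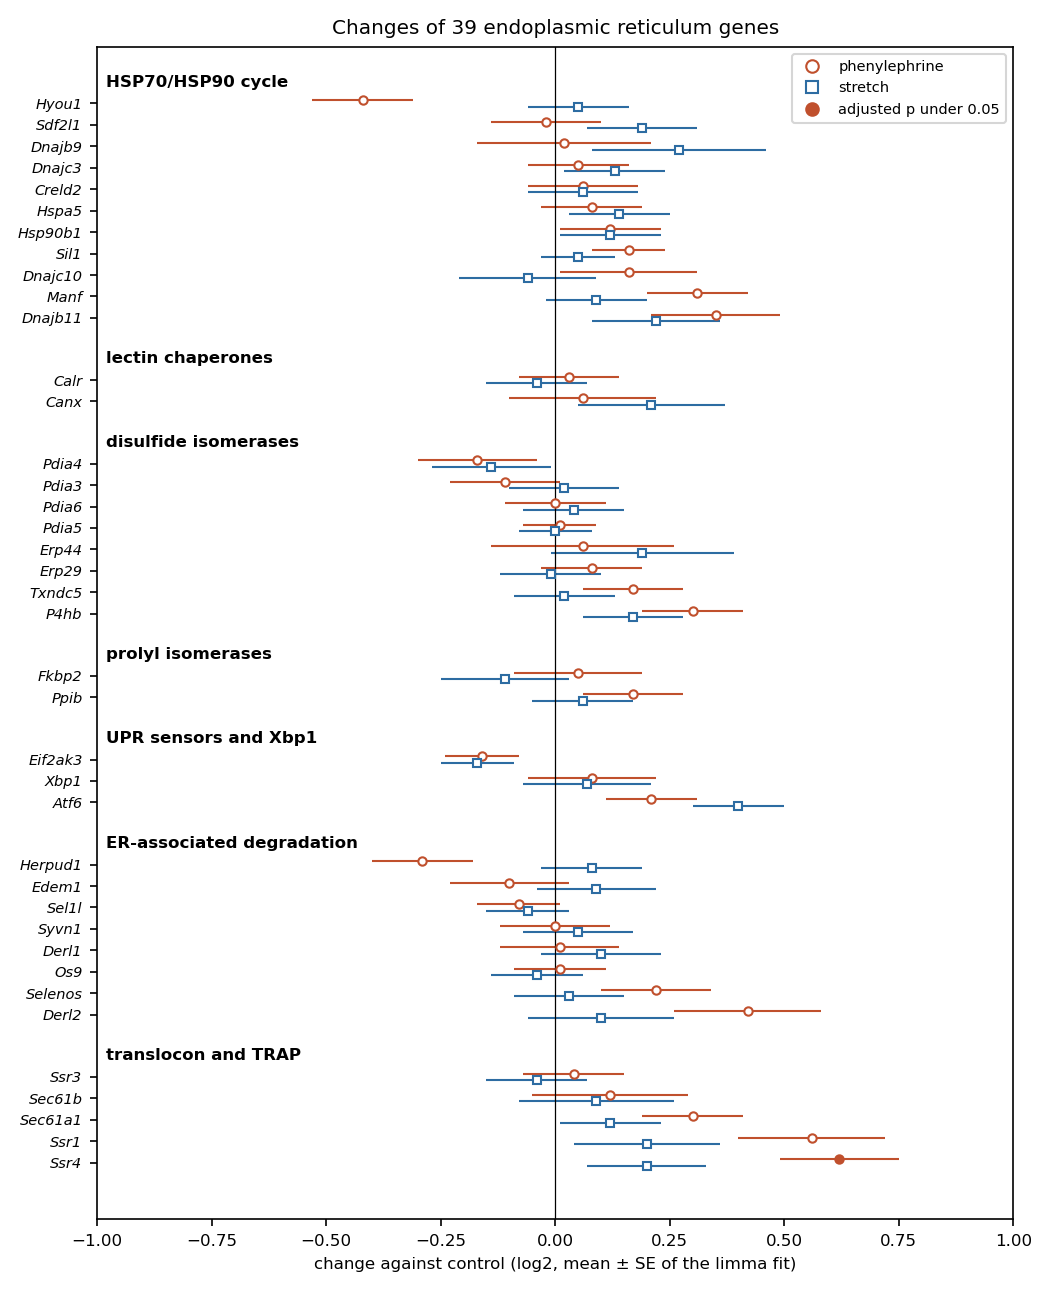
Log2 change against control of each of the 39 measured genes, grouped by role, for phenylephrine (circles) and stretch (squares); bars are the SE of the limma fit, and filled symbols mark an adjusted p under 0.05. Ssr4 with phenylephrine (0.62 ± 0.13) is the only filled symbol, and the chaperones Hspa5, Hsp90b1, Calr and Canx lie within 0.21 of 0 in both comparisons.

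With phenylephrine the largest differences among the 39 genes were those of Ssr4 and Ssr1, which belong to the entry channel and its partners. Ssr4, the δ subunit of the TRAP complex (probe set 1367690_at), gave 12.39 and 12.20 in control arrays, 13.04 and 12.78 with phenylephrine, and 12.53 and 12.48 with stretch. Both phenylephrine arrays were above all 4 others, and the stretch arrays were above the control arrays and below the phenylephrine arrays. Ssr4 rose 1.53-fold with phenylephrine (0.62 ± 0.13 log2, SE, n = 2 arrays a group; adjusted p = 0.046). The stretch change was 0.20 ± 0.13 (adjusted p = 1). Stretch against phenylephrine gave -0.41 ± 0.13 (adjusted p = 0.23). The phenylephrine call was lost without control replicate 1 (change 0.71, adjusted p = 0.12), control replicate 2 (0.52, adjusted p = 0.31), phenylephrine replicate 1 (0.48, adjusted p = 0.097) and either stretch array (0.62, adjusted p = 0.095 for each), and in a fit of control and phenylephrine arrays alone (adjusted p = 0.094). Over 12 alternatives the change ran from 0.48 to 0.75 and the adjusted p from 0.0011 to 0.31. Idh3g, a mitochondrial enzyme gene transcribed in the opposite direction from a start 176 bases away, gave 13.28 and 13.08 in control, 13.12 and 12.95 with phenylephrine, and 13.13 and 13.12 with stretch, a phenylephrine change of -0.14 ± 0.12 (adjusted p = 0.62).

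Ssr1, the α subunit of TRAP (probe set 1373090_at), gave 11.17 and 10.85 in control, 11.71 and 11.44 with phenylephrine, and 11.29 and 11.13 with stretch. Its phenylephrine arrays too were above all 4 others, while stretch and control overlapped. The phenylephrine change was 0.56 ± 0.16 (adjusted p = 0.11), and a dimmer probe set of the gene, 1390767_at, gave 0.61 ± 0.26 (adjusted p = 0.29). Ssr2, the β subunit and the remaining TRAP gene, which was not among the 40, gave 0.53 ± 0.13 (adjusted p = 0.069). Ssr3, the γ subunit, gave 12.59 and 12.62 in control, 12.65 and 12.65 with phenylephrine, and 12.48 and 12.65 with stretch, a phenylephrine change of 0.04 ± 0.11. The TRAP subunits thus gave unequal values, with Ssr1, Ssr2 and Ssr4 between 0.53 and 0.62 and Ssr3 near 0; the difference between subunits was not tested.

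Sec61a1, which forms the channel itself, gave 10.89 and 10.85 in control, 11.21 and 11.14 with phenylephrine, and 10.95 and 11.02 with stretch. The 3 groups did not overlap and ran from control over stretch to phenylephrine. The phenylephrine change was 0.30 ± 0.11 (adjusted p = 0.21), and the gene's other probe sets gave 0.29 and 0.11. Sec61b, the β subunit of the channel, gave 0.12 ± 0.17. All 5 genes of this group had a phenylephrine change above 0, with a median of 0.30, where 50.7% of all genes lay above 0. Of the 5 genes 4 were above control without overlap, against 22% of all genes. Among 18 other genes of signal sequence handling and translocation, Ssr2 included, 11 had a phenylephrine change above 0, with a median of 0.02. Of these 18, 3 were above control without overlap. With stretch 4 of 5 were above 0, with a median of 0.12, and 0 of 5 passed in either stretch comparison. Values by array of Ssr4, Ssr1, Sec61a1 and 8 further genes, as well as Hspa5, are drawn in the plot of log2 signals by group; apart from Ssr4, Atf6, Derl2, P4hb and Hyou1, these genes were picked after their values were seen.

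**Figure D3:**
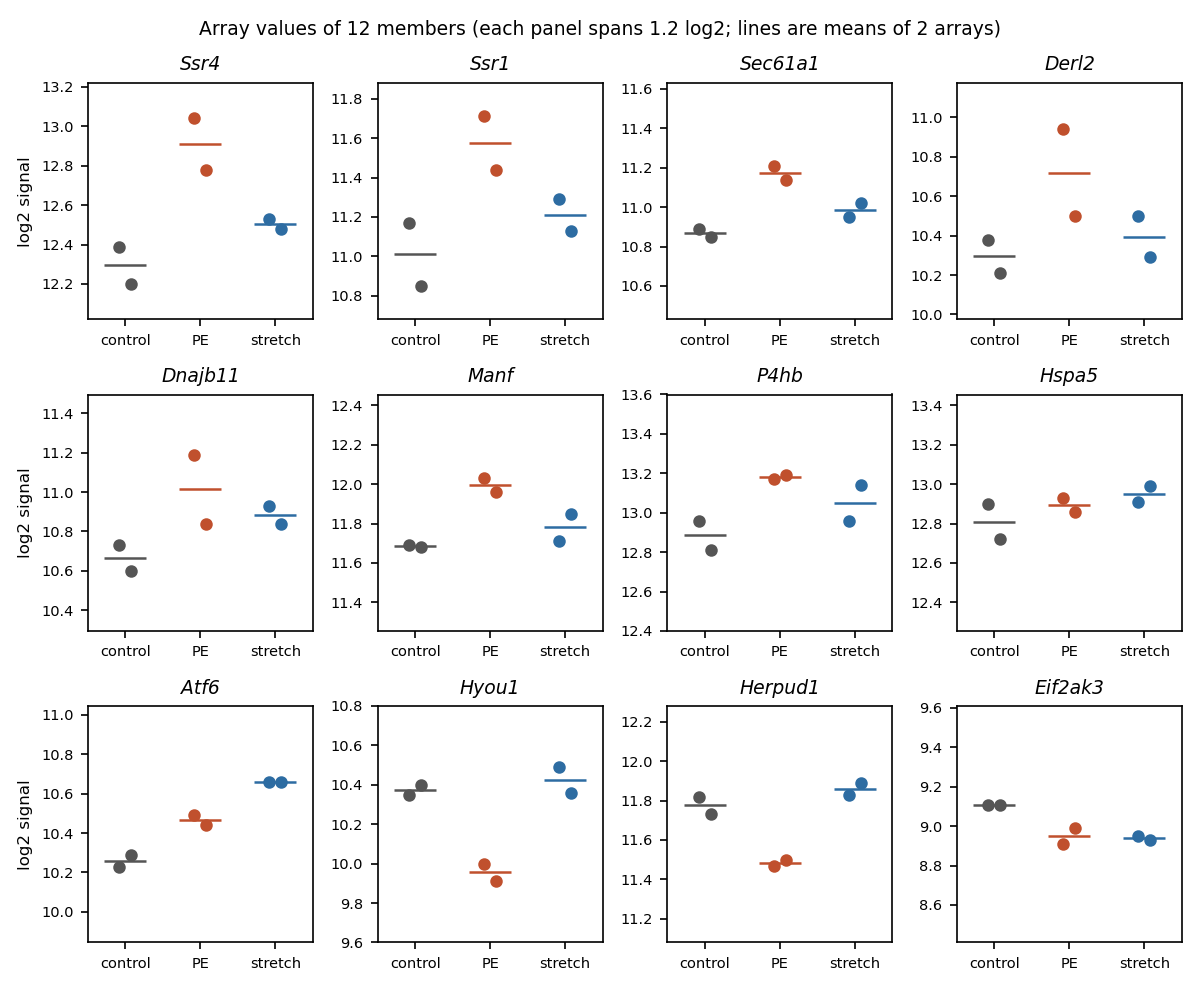
Log2 signal on each of the 6 arrays for 12 genes, with replicate 1 left and replicate 2 right in each group (PE, phenylephrine) and lines at the group means; the vertical axis of each panel spans 1.2 log2 units but starts at a different level. Phenylephrine lies above control without overlap in Ssr4, Ssr1, Sec61a1, Derl2, Dnajb11, Manf, P4hb and Atf6 and below it in Hyou1, Herpud1 and Eif2ak3, while Hspa5 overlaps.

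In the HSP70/HSP90 cycle 0 of 11 genes passed in any comparison. Hspa5, which encodes BiP, the central HSP70 of the compartment (probe set 1370283_at), gave 12.90 and 12.72 in control, 12.93 and 12.86 with phenylephrine, and 12.91 and 12.99 with stretch. Phenylephrine overlapped control, and stretch lay just above it. Its phenylephrine change was 0.08 ± 0.11 (adjusted p = 0.78, 95% interval -0.17 to 0.34), so that a rise above 1.26-fold lay outside the interval. The stretch change was 0.14 ± 0.11 (95% interval -0.11 to 0.39), with the upper bound at 1.31-fold. Hsp90b1, which encodes GRP94, gave 0.12 ± 0.11 in both comparisons with control. In both major chaperones the standard error was close to the size of the difference.

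Hyou1, the large HSP70 relative and nucleotide exchange factor of BiP (probe set 1371442_at), gave 10.35 and 10.40 in control, 10.00 and 9.91 with phenylephrine, and 10.49 and 10.36 with stretch. Both phenylephrine arrays were below all 4 others. The phenylephrine change was -0.42 ± 0.11 (adjusted p = 0.087) and stretch against phenylephrine gave 0.46 ± 0.11 (adjusted p = 0.10). Its dimmer probe set, 1370665_at, with signals of 8.18 to 8.37, gave 0.02 ± 0.07 with phenylephrine. The 2 probe sets of Hyou1 therefore disagreed. Sil1, the other exchange factor of BiP, gave 0.16 ± 0.08 with phenylephrine and 0.05 ± 0.08 with stretch.

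Among the J-domain cochaperones, Dnajb11 gave 10.73 and 10.60 in control, 11.19 and 10.84 with phenylephrine, and 10.93 and 10.84 with stretch. All 4 treated arrays were above both controls. Its phenylephrine change was 0.35 ± 0.14 (adjusted p = 0.28) and its stretch change 0.22 ± 0.14. Dnajb9, which directs clients of BiP to degradation, gave 10.81 and 10.41 in control, 10.79 and 10.47 with phenylephrine, and 11.06 and 10.70 with stretch. The stretch change was 0.27 ± 0.19, the widest error of this group of genes, and replicate 2 read lower than replicate 1 in every group. Replicate 2 was also the lower for 28 of the 39 genes in control, 35 with phenylephrine and 27 with stretch. Over all genes these shares were 58.4%, 67.7% and 64.2%. Dnajc3, an inhibitor of PERK, gave 0.05 and 0.13, and Dnajc10, a reductase that acts in degradation, gave 0.16 and -0.06 for phenylephrine and stretch.

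Manf, a secreted protein that binds BiP and protects cells under stress, gave 11.69 and 11.68 in control, 12.03 and 11.96 with phenylephrine, and 11.71 and 11.85 with stretch. Phenylephrine stood above all other arrays. The phenylephrine change was 0.31 ± 0.11 (adjusted p = 0.22), and stretch gave 0.09 ± 0.11. Sdf2l1, a partner of the BiP cochaperones, gave -0.02 ± 0.12 with phenylephrine and 0.19 ± 0.12 with stretch. Creld2 gave 0.06 in both.

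The lectin chaperones bind the sugar chains of new glycoproteins. Canx, which encodes calnexin, gave 12.52 and 12.11 in control, 12.47 and 12.29 with phenylephrine, and 12.60 and 12.44 with stretch. The 3 groups overlapped, and the control arrays lay 0.41 apart, the widest control gap of the 39 genes. Its phenylephrine change was 0.06 ± 0.16 and its stretch change 0.21 ± 0.16. Calr, which encodes calreticulin, gave 0.03 ± 0.11 and -0.04 ± 0.11. Neither gene passed in any comparison.

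Of the 8 disulfide isomerase genes 0 passed in any comparison, with medians of 0.03 for phenylephrine and 0.02 for stretch. P4hb, the archetypal protein disulfide isomerase and also the β subunit of collagen prolyl 4-hydroxylase, gave 12.96 and 12.81 in control, 13.17 and 13.19 with phenylephrine, and 12.96 and 13.14 with stretch. The phenylephrine arrays were above all others. Its phenylephrine change was 0.30 ± 0.11 (adjusted p = 0.23) and its stretch change 0.17 ± 0.11. At the other end Pdia4 gave -0.17 ± 0.13 with phenylephrine and -0.14 ± 0.13 with stretch, with overlapping arrays in both. Pdia3, which works with the lectin chaperones, gave -0.11 and 0.02, Pdia6 gave 0.00 and 0.04, and Pdia5 gave 0.01 and 0.00. Txndc5 gave 0.17 with phenylephrine and 0.02 with stretch, Erp29 gave 0.08 and -0.01, and Erp44, which retains oxidases in the early secretory pathway, gave 0.06 ± 0.20 and 0.19 ± 0.20. The phenylephrine arrays of Erp44 lay 0.59 apart, the widest gap of the group among the 39 genes.

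Prolyl isomerases speed the turning of proline bonds. Ppib, which encodes cyclophilin B, gave 12.60 and 12.44 in control, 12.74 and 12.64 with phenylephrine, and 12.54 and 12.62 with stretch, so that phenylephrine lay just above the other arrays. Its changes were 0.17 ± 0.11 and 0.06 ± 0.11. Fkbp2 gave 0.05 ± 0.14 with phenylephrine and -0.11 ± 0.14 with stretch.

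The degradation genes fell on both sides of 0, and 0 of 8 passed in any comparison. Derl2, a channel component for proteins leaving the compartment (probe set 1376437_at), gave 10.38 and 10.21 in control, 10.94 and 10.50 with phenylephrine, and 10.50 and 10.29 with stretch. Its phenylephrine arrays did not overlap control but lay 0.44 apart. The phenylephrine change was 0.42 ± 0.16 (adjusted p = 0.26), while its other probe set, 1377763_at, gave -0.11 ± 0.10. Herpud1, which assembles the degradation complex, gave 11.82 and 11.73 in control, 11.47 and 11.50 with phenylephrine, and 11.83 and 11.89 with stretch. Phenylephrine lay below all other arrays. Its phenylephrine change was -0.29 ± 0.11 (adjusted p = 0.23) and stretch against phenylephrine gave 0.38 ± 0.11 (adjusted p = 0.19).

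Sel1l and Syvn1, which form the ubiquitin ligase of the degradation complex, gave -0.08 and 0.00 with phenylephrine and -0.06 and 0.05 with stretch. Edem1, which trims mannose from failed glycoproteins, gave -0.10 and 0.09, and Os9, which reads the trimmed sugar, gave 0.01 and -0.04. Selenos gave 0.22 ± 0.12 with phenylephrine and 0.03 with stretch. Derl1 gave 0.01 and 0.10 on its brightest probe set, and 0.36 ± 0.15 with phenylephrine on another.

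Among the sensors, Atf6 had the largest stretch change of the 39 genes. Atf6 (probe set 1392475_at) gave 10.23 and 10.29 in control, 10.49 and 10.44 with phenylephrine, and 10.66 and 10.66 with stretch. The groups did not overlap and ran from control over phenylephrine to stretch. The stretch change was 0.40 ± 0.10 (1.32-fold; adjusted p = 0.36) and the phenylephrine change 0.21 ± 0.10 (adjusted p = 0.38). A dimmer probe set, 1384957_at, with signals of 7.62 to 7.79, gave 0.03 ± 0.07 in both. Eif2ak3, which encodes PERK, gave 9.11 and 9.11 in control, 8.91 and 8.99 with phenylephrine, and 8.95 and 8.93 with stretch. All 4 treated arrays were below both controls. Its changes were -0.16 ± 0.08 (adjusted p = 0.37) and -0.17 ± 0.08 (adjusted p = 0.94). Xbp1, the transcription factor made active by IRE1α splicing of its RNA, gave 0.08 ± 0.14 and 0.07 ± 0.14. These probe sets measure total Xbp1 RNA and say nothing of its splicing.

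The direct comparison of stretch with phenylephrine called 0 of the 39 genes in limma, where 1.33% of all probe sets passed (0.718% higher and 0.612% lower, a split that single arrays moved). With 1 probe set per gene, 142 of all 14217 genes were higher and 119 lower. An unadjusted p under 0.05 was reached by 4 of the 39, where 14.6% of all genes did so. Hyou1 and Herpud1 were higher in stretch, and Ssr4 and Ssr1 were lower. Arrays of stretched cells lay above both phenylephrine arrays for 4 genes and below them for 11, against 23.8% and 17.7% of all genes. Every gene of the translocon group had a value below 0, between -0.41 and -0.03, where 53.1% of all genes lay above 0. The same phenylephrine arrays enter this comparison and the one with control, so these values are not a separate observation. After quantile normalization Hyou1 and Ssr4 passed, where 1527 of all 31042 probe sets did, against 413 in the main fit.

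The genes with ERSE matches lay within 0.21 of 0 in both comparisons with control. Over all genes the quartiles were -0.12 and 0.08 with phenylephrine and -0.06 and 0.07 with stretch. Of all probe sets 3.6% passed with phenylephrine and 0.345% with stretch. All 7 had phenylephrine changes of 0.03 to 0.12 with a median of 0.06 and stretch changes of -0.04 to 0.21 with a median of 0.12, and 0 passed. The 3 genes with ERSE-II gave -0.42 (Hyou1), -0.29 (Herpud1) and 0.35 (Dnajb11) with phenylephrine and 0.05 to 0.22 with stretch, and 0 passed. The phenylephrine arrays of all 3 stood apart from control, below it for Hyou1 and Herpud1 and above it for Dnajb11. Over all genes 22% stood above control in this way and 24.9% below.

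Other genes of the secretory pathway and of the stress response were grouped in 8 lists. Of 18 genes listed as the PERK-ATF4 arm, 6 rose and 0 fell with phenylephrine, with a median of 0.40. With stretch 6 rose and 0 fell, with a median of 0.50. The arrays do not measure PERK activity, and what raised these genes was not tested. Asns, which encodes asparagine synthetase, gave 9.46 and 9.21 in control, 11.41 and 11.11 with phenylephrine, and 11.05 and 10.88 with stretch. It rose by 1.93 ± 0.15 with phenylephrine (adjusted p = 0.0015) and by 1.63 ± 0.15 with stretch (adjusted p = 0.0056). Trib3, a pseudokinase induced by ATF4, gave 8.62 and 8.68 in control, 9.38 and 9.25 with phenylephrine, and 10.29 and 10.27 with stretch. All 4 treated arrays were above control for both genes, and Trib3 was higher with stretch than with phenylephrine by 0.96 ± 0.09 (adjusted p = 0.005).

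Chac1, which degrades glutathione, rose by 0.87 ± 0.12 (adjusted p = 0.011) with phenylephrine and 1.06 ± 0.12 (adjusted p = 0.015) with stretch. The transcription factor gene Atf5 rose by 1.13 ± 0.13 with phenylephrine (adjusted p = 0.005), and the mTOR inhibitor gene Ddit4 by 0.69 ± 0.10 (adjusted p = 0.011). Atf3 rose by 1.05 ± 0.11 with stretch (adjusted p = 0.01) and gave 0.14 ± 0.11 with phenylephrine. Ddit3, which encodes the death-associated factor CHOP, gave 10.73 and 10.63 in control, 10.59 and 10.39 with phenylephrine, and 11.36 and 11.31 with stretch. Its stretch arrays were above all others. The difference between stretch and phenylephrine passed for Ddit3 (0.84 ± 0.12, adjusted p = 0.021), Atf3 (0.91 ± 0.11, adjusted p = 0.011), Cebpb (0.78 ± 0.11, adjusted p = 0.019) and, lower in stretch, Ddit4 (-0.72 ± 0.10, adjusted p = 0.018), while the stretch change of Ddit3 against control did not (0.65 ± 0.12, adjusted p = 0.11). Atf4 itself, named after its values were seen, gave 0.47 ± 0.11 (adjusted p = 0.058) and 0.48 ± 0.11 (adjusted p = 0.22).

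The counts in this arm fell when a control or a stretch array was left out. Without control replicate 1 and 2, Chac1 gave 0.87 and 0.88 with phenylephrine, and Ddit4 gave 0.68 and 0.71. Over 12 alternatives the phenylephrine change of Asns ran from 1.77 to 2.08, of Chac1 from 0.72 to 1.03 and of Ddit4 from 0.67 to 0.74. Ppp1r15a and Sesn2 were named after their values were seen. Over the same alternatives their stretch changes ran from 0.97 to 1.05 and from 0.53 to 0.99. With phenylephrine 1 gene passed without control replicate 1 (Asns) and 2 passed without control replicate 2 (Asns and Atf5). With stretch 2 passed without control replicate 1 (Asns and Trib3), 2 without control replicate 2 (Atf3 and Trib3), 1 without stretch replicate 1 (Trib3) and 3 without stretch replicate 2 (Asns, Atf3 and Trib3). Of the 5 calls between stretch and phenylephrine, 2 were left without control replicate 1 and 2 without control replicate 2 (Atf3 and Trib3 in each), 0 without stretch replicate 1 and 1 without stretch replicate 2 (Trib3). The phenylephrine change of Asns and the stretch change of Trib3 passed without each of the 6 arrays.

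Genes of transport out of the compartment and of folding aids outside the 40 also included calls with phenylephrine. Of 14 genes of COPII transport 2 rose and 0 fell, with a median of 0.20. Kdelr3, a receptor that returns escaped chaperones, gave 9.54 and 9.47 in control, 10.59 and 10.33 with phenylephrine, and 9.63 and 9.40 with stretch. It rose by 0.96 ± 0.13 with phenylephrine (adjusted p = 0.01) and was lower with stretch than with phenylephrine by -0.95 ± 0.13 (adjusted p = 0.019). Sec13, a coat subunit of the transport vesicles, rose by 0.71 ± 0.11 (adjusted p = 0.013). Both phenylephrine calls were lost without a control array, at changes of about the same size. Without control replicate 1 Kdelr3 gave 1.00 (adjusted p = 0.066) and Sec13 0.70 (adjusted p = 0.13), and without control replicate 2 they gave 0.92 (adjusted p = 0.091) and 0.72 (adjusted p = 0.14). The difference of Kdelr3 between the treatments was -1.07 (adjusted p = 0.087) without stretch replicate 1 and -0.83 (adjusted p = 0.16) without stretch replicate 2. With stretch 0 of 14 passed, with a median of 0.02.

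Ostc, a subunit of the oligosaccharyltransferase that works beside the translocon, rose by 0.73 ± 0.12 with phenylephrine (adjusted p = 0.019), the only call among 15 genes of N-glycan transfer and glycoprotein folding. The change was 0.81 (adjusted p = 0.091) without control replicate 1, 0.65 (adjusted p = 0.19) without control replicate 2 and 0.73 without either stretch array (adjusted p = 0.051 and 0.05, the latter just over the threshold). P4ha1, the catalytic subunit of collagen prolyl 4-hydroxylase and partner of the P4hb product, gave 10.05 and 9.98 in control, 11.29 and 10.99 with phenylephrine, and 10.46 and 10.45 with stretch. Its phenylephrine change was 1.13 ± 0.13 (adjusted p = 0.0049), the only call among 11 genes of collagen folding and modification. Which cells gave this change was not tested. Without control replicate 2 the change of P4ha1 was 1.09 (adjusted p = 0.059). Creb3l2, a membrane-bound transcription factor of the secretory pathway, rose by 0.46 ± 0.07 with phenylephrine (adjusted p = 0.014) and was lower with stretch than with phenylephrine by -0.43 ± 0.07 (adjusted p = 0.032), the only calls among 17 other UPR regulators. Without control replicate 1 or 2 its phenylephrine change was 0.44 or 0.47 (adjusted p = 0.11 in each). Its difference between the treatments stayed between -0.48 and -0.38 with any 1 of the 6 arrays left out, at adjusted p from 0.051 to 0.23.

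Of 15 other oxidoreductases and isomerases, 18 genes of signal sequence handling and 20 other degradation genes, 0 passed in either comparison with control in limma. An unadjusted p under 0.05 was reached by 5, 2 and 2 of them with phenylephrine and 0, 1 and 2 with stretch. Over all genes these shares were 19.4% and 7.24%. The largest differences in these lists were those of Txndc12 (0.54 ± 0.16, adjusted p = 0.14) and of Ssr2, given above, with phenylephrine, and of Ubxn4 with stretch (0.36 ± 0.12, adjusted p = 0.64). In all 8 lists together 11 of 128 genes rose and 0 fell with phenylephrine, against 1 and 0 of the 39. With stretch 6 of the 128 rose and 0 fell, against 0 and 0. Of all 14217 genes 343 rose and 335 fell with phenylephrine, and 65 rose and 9 fell with stretch. After quantile normalization 2790 of all 31042 probe sets passed with phenylephrine and 386 with stretch. Members and lists were chosen with earlier results of these data known, and the difference between the lists was not tested. The phenylephrine count of 11 was 2 without control replicate 1 or 2, and 32 after quantile normalization. The stretch count of 6 was 2 without control replicate 1 or 2, 1 without stretch replicate 1 and 3 without stretch replicate 2, and 10 after quantile normalization.

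**Figure D4:**
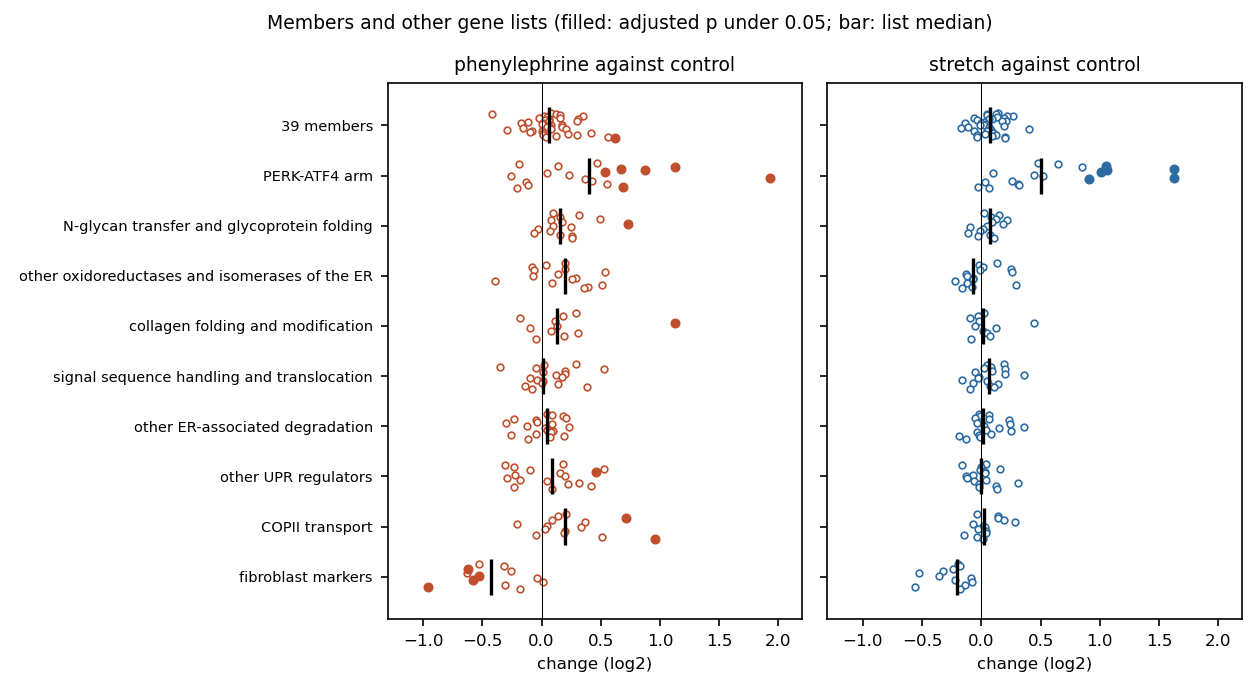
Log2 change against control of every gene of the 39, of 8 other lists and of the fibroblast markers, for phenylephrine (left) and stretch (right); each circle is a gene, filled where the adjusted p is under 0.05, and black bars are list medians. The PERK-ATF4 arm has 6 filled circles on each side and medians of 0.40 and 0.50, the 39 genes have medians of 0.06 and 0.07 with 1 filled circle, and the fibroblast markers have medians of -0.43 and -0.21.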

How the data were processed

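The deposited table gives 1 log2 value per probe set and array; its scale was read from the values, and the authors' probe set summary and normalization were not given in the sources used here. A shift shared by most probe sets would not show in such values, and the number of arrays limits the precision. Of 31099 probe sets 57 array controls were left out. Genes were named from the platform annotation (20826 probe sets with 1 symbol, 436 with several, 9780 with none).

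limma 3.58.1 (R 4.3.3) fitted a mean for each group over the 6 arrays (lmFit, eBayes with a mean-variance trend; 3 residual and 4.8 prior degrees of freedom), with two-sided tests and Benjamini-Hochberg adjustment over 31042 probe sets. Folds are 2 to the power of the log2 change. The fit was also run on simulated data with independent noise for each array. Deviations of same-numbered arrays in the real data correlated at 0.487 to 0.673, so the simulation does not match them. Its outcome is not given, and no result here rests on it. Members and lists were chosen with earlier results of these data known. All 40 members could be named; array values are given for members past the threshold and for the largest change of each role group, others having been picked after their values were seen. From other lists up to 4 called genes for each comparison, or the largest change, were named. One ERSE stretch is not reported here, and the ERSE-II match of Dnajb11, which spans the start, was not printed.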

Additional observations from a re-analysis of the deposited data

How the results depend on the processing

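The alternatives were quantile normalization, no mean-variance trend, a fit of the 2 groups compared, the replicate number as a block, dim probe sets left out (below the 25th percentile, 7.66), the mean of a gene's probe sets, and each array left out in turn; the repeats for the PERK-ATF4 arm were chosen after seeing the data. Of the 39 genes, the count with phenylephrine (1) was 0 with 2 groups, 2 without the trend, 5 after quantile normalization and 0 to 1 with an array left out; between stretch and phenylephrine (0) it was 1 without the trend and 2 after quantile normalization. With the replicate number as a block, 8 genes passed with phenylephrine (Derl2, Dnajb11, Manf, Sec61a1, Ssr1 and Ssr4 higher, Herpud1 and Hyou1 lower), 1 with stretch (Atf6) and 5 between them, and the PERK-ATF4 arm gave 10, 12 and 9; deviations of same-numbered arrays correlated at 0.487, 0.673 and 0.534, but the labels give no pairing. The arm's stretch against phenylephrine count was 2 with 2 groups, and its counts with an array left out ran from 1 to 6, 1 to 6 and 0 to 5. Over all probe sets, 1117, 107 and 413 calls became 2790, 386 and 1527 after quantile normalization and 5384, 1028 and 3734 with the block; with 2 groups 661 and 230 were left for phenylephrine against control and stretch against phenylephrine. The split of stretch calls was 95 higher and 12 lower, and 280 and 106 after quantile normalization. With an array left out these counts ran from 189 to 1249, 26 to 112 and 51 to 473. The split into higher and lower was 538 and 579 for phenylephrine, 361 and 888 without phenylephrine replicate 1, and 552 and 226 without phenylephrine replicate 2; between the treatments it was 223 and 190, then 361 and 112, and 74 and 190. Of the fibroblast markers, 4 called with phenylephrine became 2 with 2 groups and 8 after quantile normalization or with the block, and 0 called with stretch became 1, 3 and 3. For the 128 other pathway genes the block gave 41 calls with phenylephrine (11 without it) and 14 with stretch (6 without it). The members' median ran from -0.03 to 0.17 for phenylephrine and from -0.12 to 0.04 between the treatments. Of 1404 repeats for single members 71 changed sign, 0 of them past the threshold in either setting; 6, all of Ssr4, lost the call and 21 gained one. The cause of these shifts was not tested.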
